A study of Caenorhabditis elegans with 357 samples.

Results

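The comparison described here set 49 N2 animals collected at 400 to under 500 min of the fourth larval stage (L4) against 35 N2 animals collected at 300 to under 400 min. N2 is the wild-type laboratory strain of Caenorhabditis elegans. The 84 animals were chosen by the labelled minutes in L4 alone, out of 193 N2 animals and 357 animals in the whole series. Each library holds the polyA RNA of 1 whole animal, raised singly from a bleached egg on UV-killed OP50 and cut into fragments before lysis. The labels put a number after the strain, called the set here and not defined by them. The 6 sets of the later window held between 1 and 31 animals and the 6 sets of the earlier window between 1 and 11. Set was a covariate throughout, and sets 4, 6, 7 and 8 held at least 2 animals in both windows. The other strain, MT15434 with the genotype tph-1(mg280) II, carries a mutation in the tryptophan hydroxylase gene of serotonin synthesis. It gave 26 animals at 400 to under 500 min and 28 at 300 to under 400 min on the same food, and is used below only to ask whether the change between windows differed.

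Late in L4 the epidermis builds the adult cuticle under the larval one, and the larval cuticle is shed at the last molt. A molt runs as a sequence: a transient precuticle matrix is laid down first, collagens follow in successive waves, and proteases then release the old cuticle. In the same hours the hermaphrodite germline makes sperm and turns to oocytes, whose yolk comes from the intestine as vitellogenins. In whole animals, fewer cells of a type and less RNA per cell cannot be told apart.

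Libraries of the later window held 768396 to 8574450 reads (median 2103014) and those of the earlier window 1292650 to 6293574 (median 2712187). Reads from mitochondrial genes averaged 2.90% ± 0.84 of a library at 400 to 500 min and 3.67% ± 1.48 at 300 to 400 min (SD, n = 49 and 35). In 5 libraries the log2 profile correlated below 0.85 with the median of its own window, 1 of them in the later window and 4 in the earlier one (lowest 0.735, median of all libraries 0.944). The comparison between the N2 windows was also fitted without them, and results that moved are given both ways. The slopes within a window and the comparison with tph-1 were fitted only with them included.

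Between the windows, 712 of 12562 genes tested were higher at 400 to 500 min (5.67%) and 468 were lower (3.73%). Expression is given in RPM, that is, a gene's reads relative to the total reads in genes of its library. A gene was called where limma on log2(RPM + 1) gave a Benjamini-Hochberg adjusted p below 0.05 with a change of at least 1 log2 unit. Of the called genes, 692 higher and 452 lower ones had the same sign in all 4 sets with at least 2 animals in both windows. These genes were called from the same animals, so this agreement is not independent support for the calls. The median change over all tested genes was -0.13; after TMM rescaling it was -0.01, with 876 genes higher and 414 lower. Without the 5 libraries that stood apart, 645 genes were called higher and 444 lower. For 0 genes did the windows separate completely in either direction. All 12 of the largest increases were collagens. The 12 largest decreases, from -6.33 to -4.69, were grl-15, bli-2, Y102A11A.5, F33D4.6, grl-7, grl-5, bli-1, cnc-3, E01G4.6, the ligand-gated channel lgc-22, mlt-9 and lon-3.

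**Figure D1:**
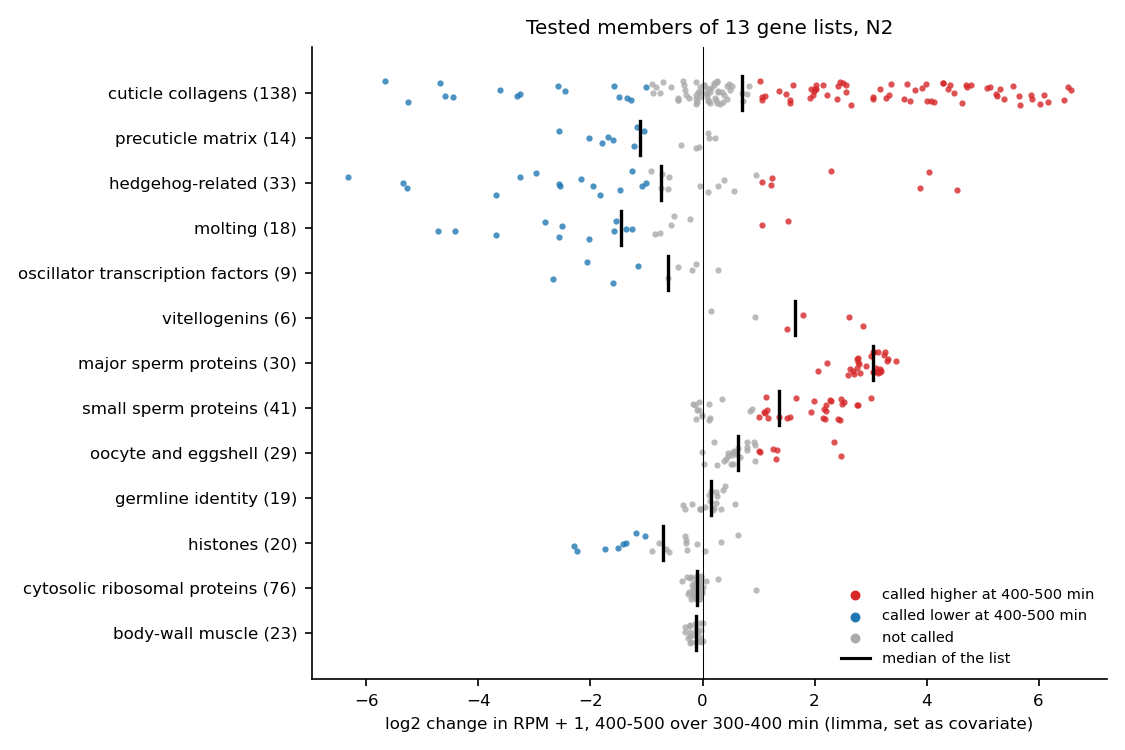
Log2 change in RPM + 1, 400-500 over 300-400 min, for the tested members of 13 gene lists (1 point per gene, limma with set as covariate; the black line is the median of a list; the number of members is in parentheses). Collagens spread to both sides, all 30 major sperm proteins lie above 2, and ribosomal and body-wall muscle genes gather near 0.

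Cuticle collagens, the main structural proteins of the cuticle, were split. Of 175 listed, 138 passed the filter on low values, and 66 of these were higher and 15 lower at 400 to 500 min. The median of the list was 0.71. Collagen transcripts together took 18.1% of the reads in the median animal of the later window (11.3% to 26.8%) and 13.2% in that of the earlier one (2.78% to 23.995%). Without the libraries that stood apart, 65 were higher and 13 lower.

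The largest increase belonged to col-129 (WBGene00000703, chromosome IV, 12108734 to 12110439, minus strand, WBcel235). It ranged from 14.4 to 9181 RPM at 400 to 500 min with a median of 1734 RPM. At 300 to 400 min it ranged from 1.19 to 532 RPM with a median of 6.65 RPM. In 36 of the 49 later animals it exceeded every earlier animal. The change was 6.57 ± 0.52 (SE; limma adjusted p = 5.99e-18). Close behind came col-124 at 6.53 ± 0.54, col-140 at 6.44 ± 0.56, col-88 at 6.16 ± 0.48 and col-162 at 6.10 ± 0.55. The other 7 of the top 12 were col-91, col-60, col-156, col-159, col-139, col-93 and col-160, from 6.02 down to 5.38.

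The collagen col-19 (chromosome X, 421707 to 422691, plus strand), long used as a marker of the adult epidermis, had a median of 129.3 RPM at 400 to 500 min (0.579 to 2173 RPM). At 300 to 400 min its median was 1.13 RPM (0 to 20.4 RPM), and 5 of the 35 animals had no read. In 38 of 49 later animals it was above all earlier ones, and its change was 5.12 ± 0.55 (limma adjusted p = 1.77e-12). The second listed adult collagen, col-7, did not pass the filter; its median was 0.734 RPM at 400 to 500 min and 0 RPM at 300 to 400 min, and 455 RPM at 500 to 600 min.

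Collagens that were lower included those of the struts, the pillars that join the layers of the adult cuticle. bli-2 (chromosome II, 5651394 to 5652434, minus strand) had a median of 21.2 RPM at 400 to 500 min (0 to 450 RPM) and 1895 RPM at 300 to 400 min (58.9 to 4452 RPM). It was below every earlier animal in 34 of 49 later ones, with a change of -5.66 ± 0.52 (limma adjusted p = 3.11e-15). bli-1 (chromosome II, 10708960 to 10712156, plus strand) had a median of 3.599 RPM at 400 to 500 min (0.587 to 33.2 RPM) and 623 RPM at 300 to 400 min (2.20 to 2639 RPM). Its change was -5.26 ± 0.43 (limma adjusted p = 3.88e-17). Only 7 of 49 later animals were below the lowest earlier one, and some animals late in the earlier window were already low. The strut list was not uniform. bli-6 had 8898 RPM in the median later animal (5041 to 11930 RPM) and 6615 RPM in the median earlier one (1436 to 12567 RPM), and its change of 0.24 ± 0.11 was not called (limma adjusted p = 0.058). The body-shape collagens lon-3 (-4.69 ± 0.51), rol-8 (-3.62 ± 0.53), sqt-1 (-3.31 ± 0.55) and rol-6 (-2.58 ± 0.36) were lower too. Of the furrow collagens, which shape the annuli, dpy-9 (-1.58 ± 0.27) and dpy-8 (-1.28 ± 0.24) were lower from levels already small: their medians were 1.02 and 4.77 RPM in the later window and 3.63 and 12.7 RPM in the earlier one. Without the libraries that stood apart dpy-8 was not called (-0.99).

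**Figure D2:**
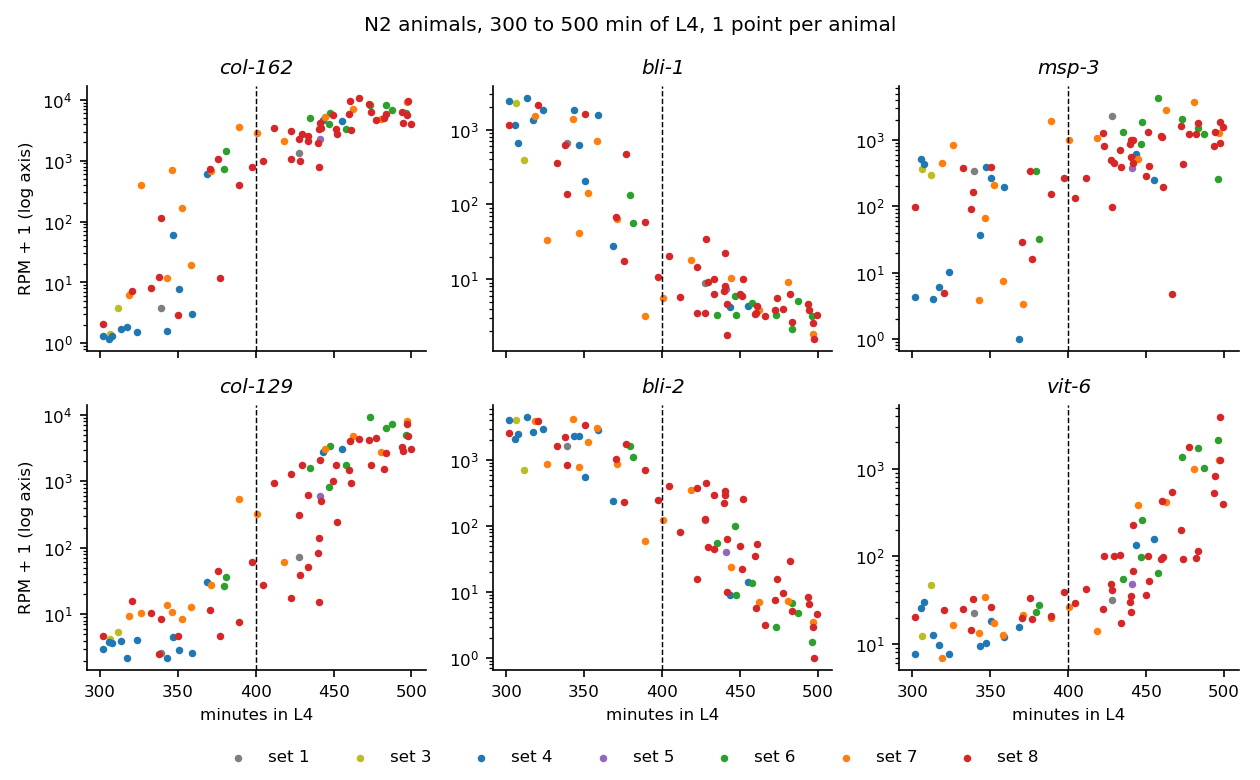
RPM + 1 on a log axis against minutes in L4 for 6 genes, 1 point per N2 animal, coloured by set (n = 49 after and 35 before the dashed line at 400 min). col-162 climbs before 400 min and col-129 mostly after it, bli-1 is low in most animals by 400 min while bli-2 still falls after it, msp-3 is below 10 RPM in 10 animals, and vit-6 climbs late.

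The 2 windows hid an order, which was read from the slope of each gene on minutes within a window, in log2 units per 100 min, with set as a covariate. Within 400 to 500 min, 510 of 12182 genes rose (4.19%) and 560 fell (4.60%). Within 300 to 400 min, 157 of 12942 rose (1.21%) and 227 fell (1.75%). Without set 8, 456 genes in all were called within 400 to 500 min (18 animals). Within 300 to 400 min limma then called 0 (24 animals), with 844 at an unadjusted p below 0.05. All 384 genes called within 300 to 400 min had the same sign without set 8. Their median slope was 3.16 in the called direction without it, against 3.10 with it. The genes were chosen in a fit that holds the same 24 animals, so this agreement cannot show that the calls stand without set 8.

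On the log2 scale, some collagens rose mainly before 400 min, from medians near 0 RPM, though in RPM they could gain more after it. col-162 (chromosome V, 13441961 to 13443419, plus strand) had medians of 2.83 RPM at 300 to 350 min (n = 20), 609 RPM at 350 to 400 min (n = 15), 2803 RPM at 400 to 450 min (n = 24) and 5856 RPM at 450 to 500 min (n = 25). Its slope was 2.21 within the later window (limma adjusted p = 4.21e-06) and 8.89 within the earlier one (limma adjusted p = 0.000765). The slopes of col-120, col-161 and col-12 were 1.36 to 2.08 within the later window, against 9.48, 8.82 and 7.38 within the earlier one.

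Others rose mainly after 400 min on the log2 scale. col-129 stood at medians of 3.42, 11.8, 546 and 3228 RPM over the same 4 intervals, with slopes of 6.30 within the later and 2.98 within the earlier window. col-19 stood at 0.917, 3.01, 26.7 and 463 RPM, and only its slope within the later window was called (8.0, limma adjusted p = 3.40e-09). The steepest rise within 400 to 500 min was that of col-81 (8.78), whose medians were 16.9, 15.4, 57.0 and 1754 RPM. Of the 66 collagens that were higher at 400 to 500 min, 31 had called rises within both windows. Rises were called within the later one alone for 19, within the earlier one alone for 11 and within neither for 5. Only 62 of the 66 were tested in both fits, and a rise that was not called may still be present. For col-124 the slope within the earlier window was 3.01 ± 1.06 and not called (limma adjusted p = 0.144).

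The falls were staggered likewise. bli-1 fell within both windows, with slopes of -1.91 in the later and -6.50 in the earlier one, and had medians of 1139, 67.2, 5.62 and 2.87 RPM over the 4 intervals. bli-2 fell within both, at -7.01 in the later and -3.94 in the earlier one, with medians of 2389, 1051, 88.8 and 6.18 RPM. sqt-1 (chromosome II, 11336693 to 11337837, minus strand) held 7444 and 8159 RPM at 300 to 350 and 350 to 400 min, then 3757 and 295 RPM at 400 to 450 and 450 to 500 min; its slope was called only within the later window (-8.35, limma adjusted p = 6.05e-10), as were those of rol-8 (-7.82), lon-3 (-7.48) and rol-6 (-5.23). Of the 15 collagens that were lower, 9 had a called fall within the later window alone and 2 within the earlier one alone. Falls were called within both for 3 and within neither for 1. Here too a missed call does not show that a fall was absent. lon-3 had a slope of -2.13 within the earlier window (limma adjusted p = 0.0556), and dpy-9 was not tested within the later one.

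**Figure D3:**
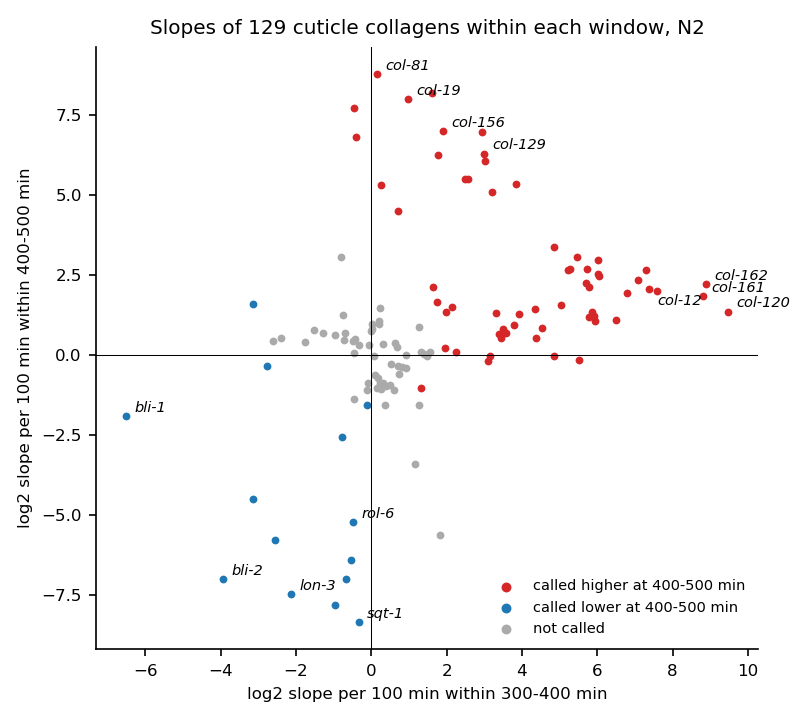
Slope on minutes within 400-500 min (y axis) and within 300-400 min (x axis), log2 units per 100 min, for the cuticle collagens tested in both fits (N2; 1 point per gene, coloured by the call between windows). The called collagens fan out from early movers such as col-120 and bli-1 near the x axis to late movers such as col-81 and sqt-1 near the y axis.

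The precuticle list, whose proteins form the transient matrix under the old cuticle, had 0 of 14 tested members higher and 8 lower, with a median of -1.11. The matrix proteins noah-2 (-2.56 ± 0.33) and noah-1 (-2.02 ± 0.35), with a zona pellucida domain, the leucine-rich repeat protein sym-1 (-1.79 ± 0.33) and the lipocalin lpr-6 (-1.68 ± 0.29) fell most. noah-1 had a median of 6.66 RPM in the later window (0.846 to 23.3 RPM) and 27.6 RPM in the earlier one (4.52 to 948 RPM). Its median had been 1532 RPM at 200 to 300 min, so the decrease between the windows here was the end of a fall: within 400 to 500 min its slope was 0.53 and not called, and within 300 to 400 min it was -5.15. Without the libraries that stood apart, 5 precuticle genes were lower.

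Hedgehog-related genes encode secreted or apical proteins (warthog, groundhog and ground-like), many made by the epidermis, and 7 of 33 tested were higher and 15 lower (median -0.75). The largest decrease of all genes belonged to grl-15 (chromosome III, 12232632 to 12236014, minus strand). Its median was 3.32 RPM at 400 to 500 min (0 to 24.4 RPM) and 983 RPM at 300 to 400 min (3.30 to 4589 RPM), a change of -6.33 ± 0.51 (limma adjusted p = 2.72e-17). grl-7 (-5.34 ± 0.41) and grl-5 (-5.28 ± 0.46) fell nearly as far. In the other direction moved grd-6 (4.54 ± 0.49), grd-14 (4.04 ± 0.36), grl-27 (3.88 ± 0.45) and grl-16 (2.30 ± 0.27). grl-16 (chromosome I, 572173 to 575120, minus strand) reached a median of 8107 RPM at 400 to 500 min (3099 to 15670 RPM) and had 1507 RPM at 300 to 400 min (58.0 to 7315 RPM); at 500 to 600 min its median was 34.7 RPM.

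Among genes known from molting, 2 of 18 were higher and 11 lower (median -1.45). mlt-9 fell by 4.72 ± 0.36 and mlt-10 by 4.41 ± 0.50; both take their name from molting defects. The hedgehog-related gene qua-1 (-3.68 ± 0.35) and the astacin protease nas-37 (-2.81 ± 0.31), which helps to digest the old cuticle, fell as well. mlt-10 (chromosome II, 546705 to 552032, plus strand) kept medians of 689 and 714 RPM in the first pair of these 50 min intervals and had 106 and 6.64 RPM in the second. The 2 that rose were nas-36 (1.53 ± 0.24), a protease related to nas-37, and bli-5 (1.06 ± 0.17), which carries a protease inhibitor domain. bli-5 stayed just above the fold threshold and dropped below it under 5 alternatives. nas-36 and nas-37 moved in opposite directions: nas-36 had medians of 54.2 RPM at 400 to 500 min and 19.04 RPM at 300 to 400 min, and nas-37 had 3.80 RPM at 400 to 500 min and 51.0 RPM at 300 to 400 min. Of all astacin proteases, 8 of 29 were higher, led by nas-30 (2.30 ± 0.30), and 4 were lower.

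The abu, pqn and fipr families, which include proteins of the pharyngeal cuticle, had 15 of 58 tested members higher and 5 lower, with a median of -0.16. abu-11 (4.39 ± 0.49) and pqn-54 (4.13 ± 0.47) rose most. abu-11 had a median of 172 RPM in the later window (9.04 to 2227 RPM) and 2.00 RPM in the earlier one (0 to 1638 RPM), and a single earlier animal kept the ranges overlapping almost fully: only 1 later animal was above it. pqn-32 fell by 4.36 ± 0.44. Among epidermal antimicrobial peptides 4 of 11 were higher and 3 lower, with cnc-8 at 2.76 ± 0.33 and cnc-3 at -4.90 ± 0.40.

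Of 9 transcription factors that oscillate with the molts, 0 were higher and 4 lower. These were bed-3, a zinc-finger gene needed for molting (-2.66 ± 0.41), myrf-1, a membrane-bound factor that drives stage transitions (-2.05 ± 0.16), lin-42, the relative of Period (-1.60 ± 0.16), and blmp-1, a zinc-finger gene (-1.15 ± 0.18). myrf-1 (chromosome II, 10496987 to 10502541, minus strand) had a median of 14.5 RPM at 400 to 500 min (5.69 to 51.5 RPM) and 79.6 RPM at 300 to 400 min (10.5 to 218 RPM). lin-42 had a median of 24.1 RPM in the later window (8.02 to 61.0 RPM) and 84.2 RPM in the earlier one (18.2 to 212 RPM). Both genes had called falls within both windows. nhr-23, an early regulator of the molting cycle, had 14.6 RPM in the later and 12.7 RPM in the earlier median animal and did not pass (0.28 ± 0.15, limma adjusted p = 0.145).

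Of 16 heterochronic genes tested, 0 were higher and 3 lower: lin-42, dre-1, an F-box gene (-1.21 ± 0.16), and mab-10, a cofactor of lin-29 (-1.02 ± 0.20). mab-10 lost its call under 9 of the alternatives. lin-29, the zinc-finger factor that triggers the larval-to-adult switch of the epidermis, had a median of 8.32 RPM in the later window and 17.8 RPM in the earlier one. Its adjusted p passed but its change did not reach 1 (-0.77 ± 0.17, limma adjusted p = 0.000141).

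**Figure D4:**
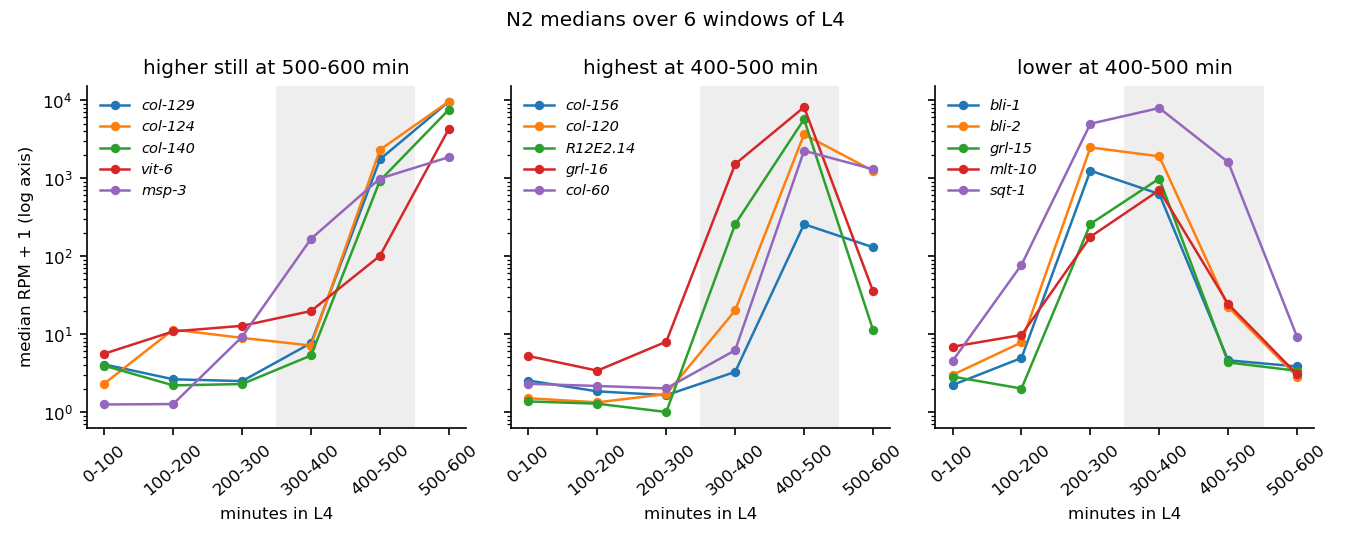
Median RPM + 1 on a log axis in 6 windows of L4 for 15 genes in N2 (n = 23, 26, 32, 35, 49 and 28 animals from left to right; the compared windows are shaded). Left, genes whose median was higher again at 500-600 min; middle, genes whose median was highest at 400-500 min; right, genes that were low by 400-500 min.

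The next window separated lasting from passing increases, and its comparison shares the animals of 400 to 500 min, so only medians are set side by side. col-129 reached 9544 RPM at 500 to 600 min, col-124 9566 RPM and col-19 3194 RPM. In contrast R12E2.14 (chromosome I, 4149981 to 4150638, plus strand), whose slope of 9.45 within 300 to 400 min was second to that of col-120, had medians of 255 RPM at 300 to 400 min, 5660 RPM at 400 to 500 min and 10.4 RPM at 500 to 600 min. grl-27 had 4.64, 108 and 10.1 RPM over the same 3 windows. The median of col-156 fell only in part, with 2.27, 255 and 128.6 RPM, and stayed well above that at 300 to 400 min.

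A set of genes crested near 400 min and was largely missed by the contrast of windows. Of 11885 genes tested in both fits, 38 had a slope called upward within 300 to 400 min and downward within 400 to 500 min. Between the windows 5 of these were called higher, 5 lower and 28 not called. Without set 8, 0 slopes were called within 300 to 400 min, so these turns were called only with set 8 included. K02E11.10 (chromosome V, 14240069 to 14241151, minus strand) had medians of 267, 1536, 1449 and 116 RPM over the 4 intervals of 50 min. Its slope was -8.19 within the later window and 4.29 within the earlier one, and its change between windows was -1.10 ± 0.65 (limma adjusted p = 0.176). wrt-8, a hedgehog-related gene, also rose and then fell (5.0, 20.1, 28.8 and 18.1 RPM), with a smaller slope of -1.37 within the later window. Unlike K02E11.10, wrt-8 was called higher between the windows (1.06, limma adjusted p = 0.000826). The reverse turn, down and then up, was called for 8 of the 11885 genes. Among them were the epidermal factor elt-3 (17.8, 7.97, 3.32 and 5.54 RPM) and dpy-31, an astacin protease that processes collagens (39.2, 18.4, 6.42 and 11.1 RPM). The genes wrt-8, elt-3 and dpy-31 were chosen as examples after their values were seen.

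All 30 major sperm proteins tested, of 31 listed, were called higher, with a median of 3.04; these cytoskeletal proteins drive the crawling of nematode sperm. Their share of reads was 1.14% in the median animal at 400 to 500 min (0.00638% to 4.83%) and 0.234% at 300 to 400 min (0.00071% to 2.41%). msp-3 (chromosome II, 4785898 to 4786281, minus strand) had a median of 984 RPM in the later window (3.67 to 4295 RPM) and 165 RPM in the earlier one (0 to 1935 RPM). Its change was 3.16 ± 0.54 (limma adjusted p = 1.54e-06), yet only 5 of 49 later animals were above the highest earlier one. The copies are nearly identical, so single members are uncertain.

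msp-3 was below 10 RPM in 1 of 49 later and 9 of 35 earlier animals. The 5 libraries that stood apart were all among these animals, with msp-3 at 0 to 5.04 RPM. Every fit without those libraries therefore left out only animals low in msp-3. The genes of the germline identity list, such as glh-1 and pgl-1, summed to 1029 RPM in that later animal and to 703 to 2527 RPM (median 1521) in the others of its window. In the 9 earlier animals they summed to 281 to 2021 RPM (median 986), and in the other 26 to 750 to 2788 RPM (median 1531). Between windows 0 of 19 germline identity genes were called by limma (0 by edgeR, 6 at an unadjusted p below 0.05), with a median of 0.16. What the low germline sums contribute to the sperm result was not tested beyond the following fits. With the log2 of that sum as a covariate, all 30 major sperm proteins were still called, with a median of 2.7, and msp-3 was at 2.79; without the 5 libraries that stood apart the median was 2.88, also with 30 called. Limma called no slope of a major sperm protein within the later window (0 of 30, 5 at an unadjusted p below 0.05) or the earlier one (0 of 30, 0).

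Of the genes listed as small sperm proteins, 27 of 41 tested members were higher and 0 lower, led by nspd-2 (3.01 ± 0.51) and ssp-10 (2.77 ± 0.48). The list pools several families, and no tested nspc member was called, with changes from -0.16 (nspc-18) to 0.13 (nspc-13). Of 31 further spermatogenesis genes 4 were higher, among them gsp-3 (1.35 ± 0.37) and gsp-4 (1.28 ± 0.33), sperm phosphatases, and spe-11 (1.26 ± 0.25), a sperm-supplied factor. Without the libraries that stood apart, 24 small sperm proteins and 3 spermatogenesis genes were called; with the germline covariate, 23 and 2 were, the median of the spermatogenesis list was 0.29 in place of 0.48, and gsp-3 lost its call (0.98). Without set 7, gsp-4 lost its call (0.97). Of 18 genes of germline sex determination limma called 0, as did edgeR, with 5 at an unadjusted p below 0.05. fog-3, which commits germ cells to sperm, had a median of 2.93 RPM in the later and 5.07 RPM in the earlier window (-0.68 ± 0.20, limma adjusted p = 0.00496), short of the threshold of 1. The timing gene lin-41, the sex determination genes fog-1 and fem-3 and tph-1 itself were not called (changes of -0.26 to 0.09), and the vulval gene egl-17 did not pass the filter.

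Of 29 oocyte and eggshell genes tested, 7 were higher and 0 lower, with a median of 0.63, and 28 of 29 had a positive change. perm-2 (chromosome IV, 1126790 to 1128865, plus strand), which builds the permeability barrier of the egg, had a median of 98.8 RPM at 400 to 500 min (10.6 to 438 RPM) and 16.9 RPM at 300 to 400 min (1.21 to 58.5 RPM). In 36 of 49 later animals it was above all earlier ones, and its change was 2.47 ± 0.26 (limma adjusted p = 8.54e-13). perm-4 (2.36 ± 0.29) and the eggshell proteoglycans cpg-2 (1.33 ± 0.24) and cpg-1 (1.31 ± 0.23) were higher as well. The yolk receptor rme-2 reached 85.7 RPM in the later and 44.02 RPM in the earlier median animal (1.02 ± 0.21), at the edge of the threshold. The count of 7 became 5 without the libraries that stood apart and 5 with the germline covariate. Of 24 cell cycle genes only cyb-1, a cyclin B, was called (1.39 ± 0.30), and of 23 synaptonemal complex genes limma called 0 and edgeR 1, with 1 at an unadjusted p below 0.05.

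Of 6 vitellogenins, which encode yolk proteins, 4 were called higher: vit-6 (2.87 ± 0.42), vit-2 (2.61 ± 0.49), vit-3 (1.80 ± 0.26) and vit-4 (1.51 ± 0.26). vit-6 (chromosome IV, 8261157 to 8266459, plus strand) had a median of 99.5 RPM at 400 to 500 min (13.1 to 3874 RPM) and 18.7 RPM at 300 to 400 min (5.90 to 45.5 RPM), and 37 of 49 later animals were above all earlier ones. Within the later window all 6 vitellogenins rose with the minutes, vit-2 by 6.96 and vit-6 by 6.22 per 100 min; within the earlier window 0 of 5 tested did. vit-2 (chromosome X, 5101042 to 5106169, plus strand) had medians of 9.62, 9.70, 12.6 and 187 RPM over the 4 intervals, and 2670 RPM at 500 to 600 min. Of 8 yolk regulators, rme-2 and the zinc-finger factor pqm-1 (1.03 ± 0.18) were called, both near the threshold of 1. Without the libraries that stood apart 1 of the 8 was called, with rme-2 at 0.90, and with the germline covariate 0 were, with rme-2 at 0.75 and pqm-1 at 0.996 (limma adjusted p = 6.07e-07 and 5.81e-06). Leaving out set 4, 6 or 7 left rme-2 at 0.93, 0.95 or 0.98, and leaving out set 4 or 8 left pqm-1 at 0.95 in each case, below the threshold of 1.

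Histone genes were lower in 8 of 20 tested, of 50 listed, with 0 higher and a median of -0.71. The linker histone his-24 had a median of 11.3 RPM in the later window (2.85 to 52.3 RPM) and 61.6 RPM in the earlier one (14.3 to 184 RPM), and 33 of 49 later animals were below all earlier ones (-2.23 ± 0.22, limma adjusted p = 1.04e-13). his-3 fell by 2.29 ± 0.30. Replication-dependent histone transcripts mostly lack a polyA tail, so polyA libraries hold only part of them.

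Few genes of other tissues and of housekeeping passed. None of 76 cytosolic ribosomal, 33 proteasome, 12 mitochondrially encoded, 22 glycolysis, 14 heat shock, 13 vulva, 12 somatic gonad, 15 pharynx, 23 body-wall muscle, 18 pan-neuronal, 13 serotonin or 7 coelomocyte and glia genes was called by limma, with list medians of -0.39 (pharynx) to 0.04 (somatic gonad) beside -0.13 for all genes. Of the 258 entries of these 12 lists, 105 had an unadjusted p below 0.05, beside 5911 of all 12562 genes tested, and edgeR called 3. The lists were not alike. Below 0.05 were 32 of 33 proteasome, 18 of 22 glycolysis and 10 of 14 heat shock genes, against 13 of 76 cytosolic ribosomal genes. Of the 33 proteasome genes 32 had a negative change, with a median of -0.27. The body-wall myosin unc-54 had 4028 RPM in the median later animal (1644 to 6804 RPM) and 4252 RPM in the median earlier one (440 to 7739 RPM), a change of -0.11 ± 0.12 (limma adjusted p = 0.515) that turned to 0.03 under TMM and 0.05 under median of ratios scaling. The pharyngeal myosin myo-2 had 251 RPM in the median later animal (22.8 to 1018 RPM) and 367 RPM in the median earlier one (45.98 to 3850 RPM) and did not pass (-0.57 ± 0.29, limma adjusted p = 0.115). Of 15 intestinal genes only the protease cpr-1 was called (-1.49 ± 0.33); of 20 fat synthesis genes the elongases elo-8 (1.43 ± 0.28) and elo-3 (-1.36 ± 0.13) moved in opposite directions. Of 79 neuropeptide genes 4 were higher, led by nlp-25 (2.40 ± 0.34) and also holding ins-37 (1.05 ± 0.25), and 2 were lower. Cuticlins, insoluble proteins of the cuticle, gave 1 higher and 2 lower of 25, the seam and hypodermis list 1 lower of 11, which was rol-6, and the sex muscle list 1 higher of 5, the transcription factor sem-2 (1.08 ± 0.17).

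In tph-1 mutants, with no animal in common, 675 of 12590 genes were higher (5.36%) and 421 lower (3.34%) at 400 to 500 min. Of the N2 calls, 552 higher genes (81.8% of the tph-1 and 77.5% of the N2 list) and 366 lower ones (86.9% of the tph-1 and 78.2% of the N2 list) were called the same way in tph-1, and 0 were called the opposite way. Side by side, the changes in tph-1 and in N2 were 5.77 and 6.57 for col-129, -5.86 and -5.26 for bli-1, and 1.75 and 2.87 for vit-6. The test of the difference itself, tph-1 minus N2, called 1 gene of 12654 higher (0.0079%) and 0 lower (0%), with 885 genes at an unadjusted p below 0.05; edgeR called 3 higher and 1 lower. A difference that misses the threshold does not show that the strains act alike.

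**Figure D5:**
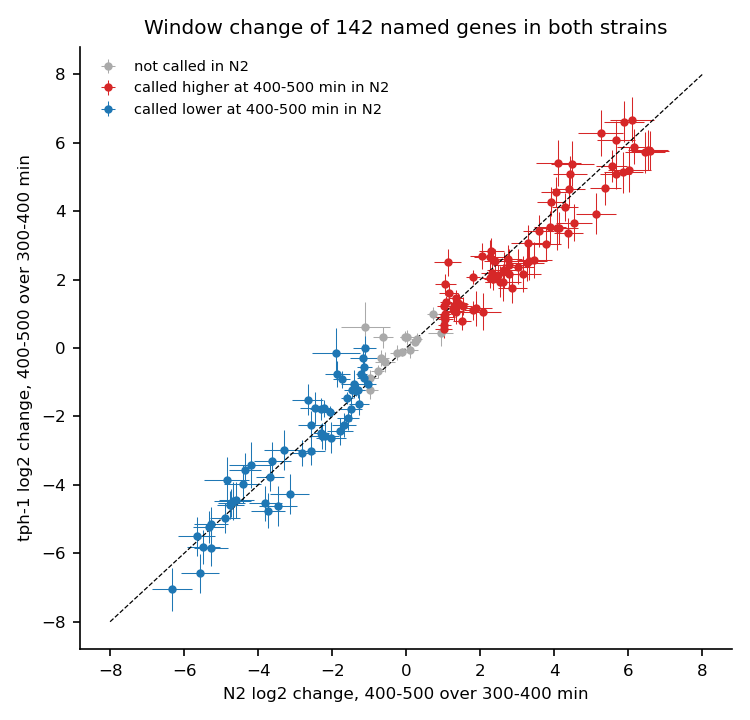
Window change, 400-500 over 300-400 min, in tph-1 (y axis) and N2 (x axis) with standard errors, log2(RPM + 1), for 142 named genes tested in both strains together (26 and 28 tph-1 animals, 49 and 35 N2 animals). The points run along the dashed line of equal change, from grl-15 at the lower left to col-162 at the upper right.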

How the data were processed

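PolyA libraries of single L4 animals were compared, 49 N2 animals at 400 to under 500 min and 35 at 300 to under 400 min, with 26 and 28 tph-1 animals of the same windows for the test between strains. The authors deposited RPM, the reads of each gene scaled to the total over listed genes; table names and values both show this unit. Alignment with STAR 2.7.9a comes from the submitters' processing notes. The build, annotation, counting tool, strand use and STAR settings were not given in the sources used here, so near-identical copies and overlapping or antisense genes are uncertain. RPM are not per length, so levels were not compared between genes. In every library 100% of the deposited RPM values were whole multiples of 1 read within 0.1 reads, so reads were recovered for edgeR and for depth. A read was worth 0.117 to 1.30 RPM in the later window and 0.159 to 0.774 RPM in the earlier one. PCR copies were not removed by molecular identifiers, so depth bounds counting error alone. Symbols matched the Ensembl annotation of WBcel235 for 18691 of 19397 genes, which gave identifiers and coordinates. Of the 19397 genes, 19364 were listed for both strains. A gene listed for only 1 strain was set to 0 in the other.

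Genes that reached 5 RPM in 10% or more of a fit's animals were tested with limma 3.58.1 (with trend, two-sided) in R 4.3.3 on log2(RPM + 1), with set as covariate and Benjamini-Hochberg adjustment over all genes tested. Changes on this scale are understated for low genes. The limma and edgeR fits were also run on simulated reads. Those held no set effect and no trend with minutes within a window, so that run cannot show how the fits behave with either. The difference between strains was the interaction of window with strain, with set within strain. Slopes used minutes within a window. Alternatives used edgeR 4.0.16 and size factors of DESeq2 1.42.0; tables and figures used Python 3.11.15. The set served as a block because the sets held the windows unevenly. Same-numbered sets also deviated together in both windows. The correlation of their deviations from the window mean was 0.246 to 0.418 for the 4 sets with at least 2 animals in both. Between different sets it was -0.347 to 0.137. The window mean here was that of the same 4 sets, which by itself lowers the values between different sets. The labels name each library as 1 individual; animals of a set share whatever the set stands for, so p-values measure the spread between animals.

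Named genes are the 12 largest increases and decreases with the same sign in 4 sets, up to 4 called members of each list and direction, 26 genes named whatever their result, and the 6 steepest slopes or strain differences in each direction. The members, lists, tests and most alternatives were chosen with earlier results of these data known; 2 alternatives, leaving out libraries that stood apart and the germline covariate, were added after seeing the data.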

Additional observations from a re-analysis of the deposited data

Results flagged for a closer look

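1 gene was singled out because its change between the windows differed between the strains. H10E21.4 (chromosome III, 17318 to 19675, minus strand, WBcel235) had medians of 531 RPM at 400 to 500 min and 83.9 RPM at 300 to 400 min in tph-1 animals, and was at 0 in all 49 and 35 N2 animals of the same windows. The difference of changes, tph-1 minus N2, was 2.46 ± 0.36 (limma adjusted p = 3.17e-06). A gene not listed for N2 was set to 0 there, and whether H10E21.4 was listed is not given here. The 0 in N2 is therefore not necessarily a measured value. Since N2 stood at 0 in all of these animals, the difference restates the change within tph-1, and no fold against N2 is given. No group here had 4 to 10 animals, so no search for single outlying animals was made.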

How the results depend on the processing

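Of 2346 values of single named genes under the alternatives, 2254 kept their direction and call. The exceptions were 65 lost calls, 25 gained calls and 2 changes of sign, both of unc-54 (0.026 under TMM and 0.051 under median of ratios scaling). Of 112 named genes, 88 kept direction and call under every setting. Between windows, a pseudocount of 5 RPM gave 415 genes higher and 273 lower. Leaving out 1 set at a time gave 582 to 898 higher and 443 to 566 lower. With no set block, so with the pairing of sets ignored, 604 were higher and 669 lower; in that fit the share of calls that were higher was 47.4%, beside 60.3% with the block. The other settings tried between windows left both counts within 1.5 times. For the strain difference, a pseudocount of 5 RPM called 2 genes, edgeR 4, and the fit with no set block 34. Slopes depended on the sets more than on scaling. Within 300 to 400 min, 1079 genes were called with no set block and 0 without set 8; within 400 to 500 min, 456 were called without set 8. The cause of these shifts was not tested. Depth limits genes below the value of 1 read, and the minutes of each animal were taken as labelled.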
